A study of Mus musculus with 4 samples.

Results

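The 6 genes that encode the platelet-derived growth factor (PDGF) ligands and their receptors were followed in cultured mouse lung fibroblasts of the genotypes labelled KrasD12 and WT. They comprised 4 ligand genes, Pdgfa, Pdgfb, Pdgfc and Pdgfd, and 2 receptor genes, Pdgfra and Pdgfrb. The genes were chosen by name, from array rows that the platform annotation pairs with exactly 1 symbol. All 6 had 1 such row each, among 19938 genes measured in this way. Expression was measured on 4 Affymetrix mouse gene arrays with biotin-labelled total RNA of untreated primary lung fibroblasts. The KrasD12 group held samples A and B of line 493. The wild-type (WT) group held samples A and B of line 494. Both lines were established from mice aged 3 to 4 weeks by outgrowth from collagenase-digested lung in serum-containing medium, and the growth protocol describes the cultures as myofibroblasts. How the KrasD12 genotype was brought about, and in which cells, is not given in the sources used here. Since each genotype was represented by 1 line, genotype and line cannot be told apart. Nothing says that A and B came from separate cultures, so the p-values measure only the spread between these samples, which may be technical.

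PDGFs are secreted dimers that cross-link receptor tyrosine kinases on mesenchymal cells. The PDGF-A and PDGF-C homodimers act through the alpha receptor, PDGF-D acts mainly through the beta receptor, and PDGF-B binds either receptor. PDGF-A and PDGF-B are processed inside the cell, whereas PDGF-C and PDGF-D are secreted with a CUB domain that proteases outside the cell must remove before the factor can bind. The activated receptors recruit adaptors, phosphatidylinositol 3-kinase and phospholipase C gamma, and feed into RAS. In the lung, PDGF-A from the epithelium drives alpha-receptor-positive mesenchymal cells to become the myofibroblasts of the growing alveolar walls. The beta receptor is best known for the recruitment of pericytes and vascular smooth muscle.

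PDGF-C and PDGF-D form a subclass of their own, and their genes are the ligand pair that the results below set side by side. The bases upstream of each gene are shown for that reason, from RefSeq on GRCm38.p6, plus strand, 5′ to 3′. Capitals mark matches to the motifs searched.
Pdgfc, chr3:81036166-81036415: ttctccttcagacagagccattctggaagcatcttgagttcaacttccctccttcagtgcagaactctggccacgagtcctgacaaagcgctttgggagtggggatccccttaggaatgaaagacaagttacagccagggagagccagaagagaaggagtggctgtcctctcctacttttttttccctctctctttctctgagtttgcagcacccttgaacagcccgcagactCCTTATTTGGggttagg
Pdgfd, chr9:6168236-6168362: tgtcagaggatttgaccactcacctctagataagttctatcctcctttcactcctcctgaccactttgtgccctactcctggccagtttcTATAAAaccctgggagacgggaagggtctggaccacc
In Pdgfc the capitals mark a CArG box, the serum response factor motif, which begins 17 bases before the annotated gene start. Among 32851 RefSeq promoter windows of 250 bases, 1.47% held this motif. In Pdgfd the capitals mark a TATA box (TATAAA) that begins 37 bases before the annotated gene start, a motif held by 12.4% of the windows. The window of Pdgfd closes at a transcript start that lies 160 bases beyond the first base of this match, and only its bases before the gene start are shown. The AP-1 motif (TGANTCA), the cyclic AMP response element (TGACGTCA), an ETS site (CCGGAAGT), the E-box (CACGTG), the GC box (GGGCGG) and the CCAAT box (CCAAT), searched on both strands, had no match in the window of either gene. Such matches describe these letters and not the use of a site.

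The deposited values are log2 expression values, and the KrasD12 and WT columns do not share 1 distribution. Column medians were 6.24 and 6.26 in KrasD12 against 5.90 and 5.91 in WT, and the median difference of all genes (KrasD12 minus WT) was 0.26. That shift depended on the level of the gene. A gene is therefore said to have risen or fallen only where limma called it with 1 sign as deposited and again with the 4 columns quantile-normalized (Benjamini-Hochberg adjusted p under 0.05 over all genes), which is named a shared call below. Of all genes, 33.9% had a shared call, 22.4% as risen and 11.5% as fallen. As deposited, 62.1% were called, 50.1% higher and 11.9% lower, and 46.9% were called with quantile normalization. The samples of a line correlated at 0.997 (KrasD12) and 0.998 (WT) and samples of different lines at 0.972 to 0.974 (Pearson's r across genes, which are not independent replicates). All 6 PDGF genes lay above the dim level of 5.15, the 95th percentile of the means of olfactory and vomeronasal receptor rows.

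Of the 6 PDGF genes, 1 rose (Pdgfra), 2 fell (Pdgfrb and Pdgfd) and 3 lacked a shared call (Pdgfa, Pdgfb and Pdgfc). The count of 3 in 6 stands beside a background of 33.9%, so the number of calls does not set these genes apart. On the deposited values the groups did not overlap for 5 of the 6 genes, all but Pdgfc, beside 83% of all genes. Their median difference was 0.0375 as deposited, beside 0.26 for all genes, and -0.18 after quantile normalization, beside 0.00 (-0.0038).

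The receptor genes moved in opposite directions. Pdgfra, which encodes the alpha receptor, read 11.94 and 11.98 in KrasD12 A and B and 11.68 and 11.72 in WT A and B. Both KrasD12 samples were above both WT samples, and the samples of each group lay 0.04 apart. The difference was 0.26 ± 0.07 on the log2 scale (limma adjusted p = 0.0198, n = 2 per group; every ± gives limma's SE), or 1.20-fold. After quantile normalization it was 0.46 ± 0.07 (adjusted p = 0.0033), or 1.38-fold. Centring each column on its median turned the sign, to -0.085 (adjusted p = 0.354), so the rise of Pdgfra depends on how the arrays are scaled. It was called after cyclic loess normalization (0.41, adjusted p = 0.0049). Genes of like mean (137 genes within 0.5 of its level) had a median difference of -0.175, and Pdgfra stood 0.435 above them. Of all genes, 60.7% differed by more than Pdgfra in either direction as deposited, and 22.6% did after quantile normalization.

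Pdgfrb, which encodes the beta receptor, read 10.45 and 10.55 in KrasD12 A and B and 11.02 and 10.97 in WT A and B. Both KrasD12 samples were below both WT samples by several times the gap between A and B. The difference was -0.495 ± 0.07 (limma adjusted p = 0.0034), or 1.41-fold lower, and -0.44 ± 0.08 after quantile normalization (adjusted p = 0.0059). Pdgfrb remained lower under all 4 scalings, with -0.435 after cyclic loess and -0.84 after median centring. The median shift of the 462 genes of like mean was -0.105, which left -0.39. Of all genes, 31.4% differed by more than Pdgfrb in either direction as deposited, and 24.5% did after quantile normalization.

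Leaving out an array left limma with 3 samples and ended most calls of single genes. Without WT A or WT B the difference of Pdgfrb was -0.47 or -0.52 (adjusted p = 0.0666 and 0.0604), whereas the call held without either KrasD12 array. The difference of Pdgfra was 0.24 to 0.28 with each of the 4 arrays left out in turn, at adjusted p of 0.0604 without KrasD12 A, 0.0734 without KrasD12 B, 0.0892 without WT A and 0.0748 without WT B. In the fits that lack a WT array, 0 of all genes tested passed in limma (unadjusted p under 0.05 in 9846 without WT A and 10022 without WT B).

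**Figure D1:**
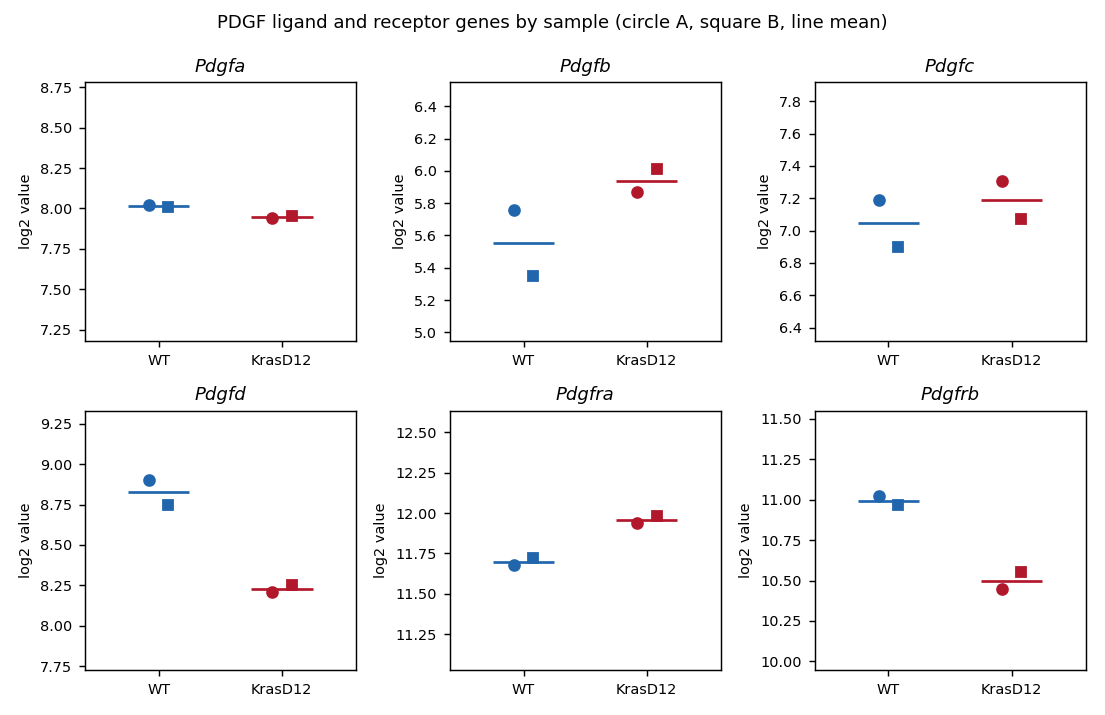
Deposited log2 values of the 6 PDGF genes in the 2 WT (blue) and 2 KrasD12 (red) samples, with circles for A, squares for B and lines for group means; every panel spans the same log2 range around the gene's own level. Pdgfd and Pdgfrb sit lower and Pdgfra higher in KrasD12 with wide gaps relative to the A to B spread, whereas the samples of Pdgfc overlap and WT A and B of Pdgfb lie far apart.

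Among the ligand genes, Pdgfd showed the largest difference of the 4. PDGF-D is a ligand that acts mainly through the beta receptor. Its gene read 8.21 and 8.25 in KrasD12 A and B and 8.90 and 8.75 in WT A and B, with both KrasD12 samples below both WT samples. The difference was -0.595 ± 0.08 (limma adjusted p = 0.0026), or 1.51-fold lower, and -0.72 ± 0.08 after quantile normalization (adjusted p = 0.0012). It was -0.73 after cyclic loess and -0.94 after median centring, so Pdgfd was called lower under all 4 scalings. On the deposited scale 22.3% of all genes differed by more in either direction, and 8.34% did after quantile normalization. The difference was -0.67 to -0.52 with each array left out in turn, at adjusted p of 0.0685 without KrasD12 A, 0.0678 without KrasD12 B, 0.0557 without WT A and 0.053 without WT B.

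Pdgfc, the gene of the other CUB-domain ligand, was not called on either scaling. It read 7.31 and 7.07 in KrasD12 A and B and 7.19 and 6.90 in WT A and B. The groups overlapped, and sample A was above sample B in each group. The difference was 0.145 ± 0.13 (limma adjusted p = 0.372, 95% interval -0.19 to 0.48), and it turned to -0.11 after quantile normalization (adjusted p = 0.519). A change of Pdgfc of the size seen for Pdgfd lies outside this interval on the deposited values.

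Pdgfa, the gene of the main alpha-receptor ligand of the developing lung, read 7.94 and 7.95 in KrasD12 A and B and 8.02 and 8.01 in WT A and B. The groups did not overlap, yet they lay only 0.07 apart, at -0.07 ± 0.06 (limma adjusted p = 0.378, 95% interval -0.23 to 0.09). Genes of like mean were shifted upward by 0.18. Under the other 3 scalings Pdgfa was called lower, at -0.24 ± 0.07 after quantile normalization (adjusted p = 0.0312), -0.25 after cyclic loess (adjusted p = 0.0257) and -0.415 after median centring (adjusted p = 0.004). Whether Pdgfa was called thus depends on the scaling, while its sign was negative under all 4.

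Pdgfb, whose product binds both receptors, read 5.87 and 6.01 in KrasD12 A and B and 5.76 and 5.35 in WT A and B. The WT samples lay 0.41 apart, the widest gap within a group among the 6 genes. The difference was 0.385 ± 0.15 (limma adjusted p = 0.0672, 95% interval 0.01 to 0.76). The median shift of genes of like mean was 0.38, almost the whole of it, and after quantile normalization the difference was 0.01 ± 0.14 (adjusted p = 0.951). Neither the deposited nor the quantile values called Pdgfb.

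**Figure D2:**
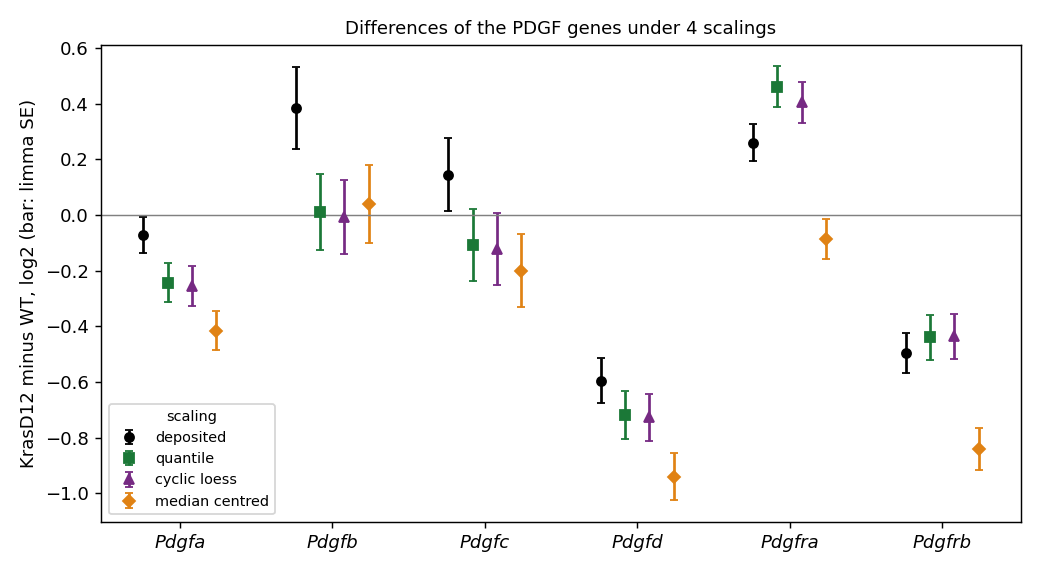
Difference between KrasD12 and WT (log2, points, with limma's SE as bars, n = 2 per group) for each PDGF gene on the deposited values and after quantile, cyclic loess and median scaling. Pdgfd and Pdgfrb lie below 0 under all 4 scalings, Pdgfra lies above 0 except after median centring (-0.085), and Pdgfb and Pdgfc cross or approach 0.

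**Figure D3:**
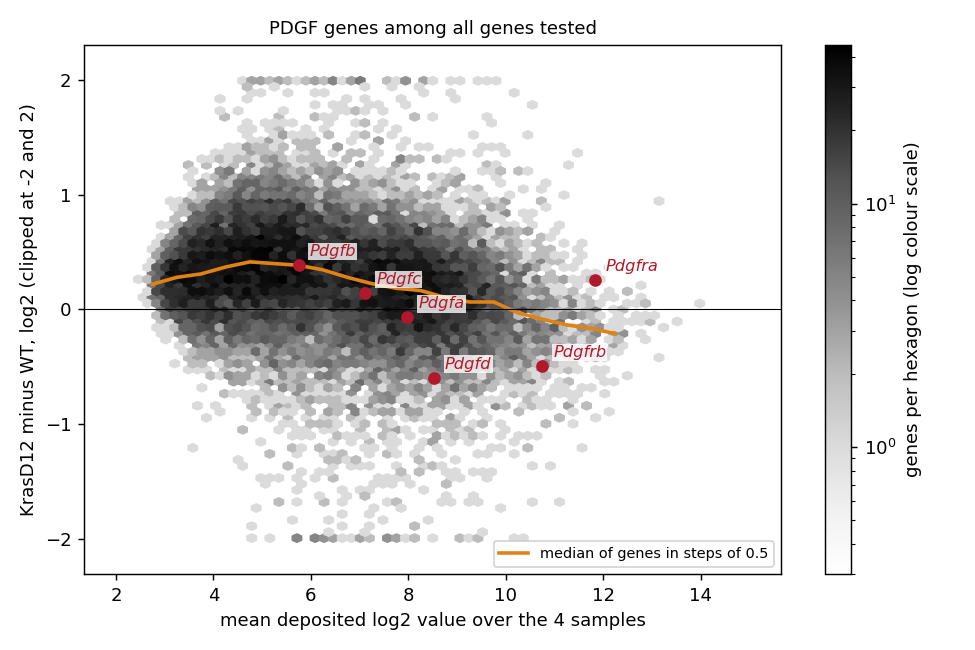
Difference between KrasD12 and WT (log2, vertical) against the mean deposited log2 value (horizontal) for all genes tested (grey hexagons, darker for more genes) and for the 6 PDGF genes (red); the orange line is the median difference of genes in steps of 0.5. Pdgfb and Pdgfc lie close to the line, Pdgfa and Pdgfd below it, and at the bright end Pdgfra lies above and Pdgfrb below it.

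A constant scaling of a whole array cancels when the values of 2 genes are subtracted within a sample, so the receptor pair and the ligand pair were also compared in this way. Such a difference shows unequal change only, and its level has no meaning of its own. Pdgfra minus Pdgfrb was 1.49 and 1.43 in KrasD12 A and B and 0.66 and 0.75 in WT A and B. The groups did not overlap, and the mean was higher in KrasD12 by 0.755, a 1.69-fold change of the receptor ratio, or by 0.90 after quantile normalization. Pdgfc minus Pdgfd was -0.90 and -1.18 in KrasD12 and -1.71 and -1.85 in WT. It was higher in KrasD12 by 0.74, or by 0.61 after quantile normalization. For each of these 2 pairs the exact permutation test over samples (two-sided, n = 2 per group) gave p = 0.333, the smallest that 2 samples against 2 allow, so the design cannot reach the threshold. Both pairs were chosen after the values were seen.

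Marker genes were read beside the receptors. The fibroblast markers (Col1a1, Col1a2, Col3a1, Dcn, Lum, Thy1 and Vim) were all above the dim level in both lines, with a mean log2 value of 11.0 in each KrasD12 sample and 11.2 in each WT sample. Of these 7, Col1a1 (-0.595) and Thy1 (-0.31) fell. Of the smooth muscle markers, 5 of 6 fell (Acta2, Actg2, Cnn1, Myh11 and Tagln, with differences of -1.925 to -1.485), beside 11.5% of all genes. The sixth, Des, was called higher on the deposited values only (0.525, limma adjusted p = 0.0156, and 0.13 after quantile normalization). The smooth muscle list mean was 6.92 to 7.01 in KrasD12 against 8.23 to 8.29 in WT. Acta2 and Tagln also mark myofibroblasts, as which the growth protocol describes these cultures, so the list does not single out smooth muscle. Smooth muscle is a tissue in which the beta receptor is prominent, and the part of these transcripts in the fall of Pdgfrb was not tested. In bulk samples fewer cells of a type and less RNA per cell cannot be told apart. Of the 7 pericyte markers 2 rose (Cspg4 and Higd1b) and 0 fell (limma, also 0 lower at an unadjusted p under 0.05 as deposited). That is 28.6% risen and 0% fallen, beside 22.4% and 11.5% of all genes. The same all-gene shares stand beside the other marker lists. After quantile normalization limma called 2 of the pericyte markers higher and 1, Kcnj8, lower (-0.33, adjusted p = 0.037). List means were 5.85 to 5.96 in KrasD12 and 5.47 to 5.54 in WT. The markers Rgs5 and Higd1b did not exceed the dim level in either group mean.

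Of the alveolar fibroblast markers, Tcf21 (-2.025, to a KrasD12 mean below the dim level) and Npnt (-1.585) fell and the other 4 lacked a shared call. Their list mean was 5.67 to 5.72 in KrasD12 and 6.03 to 6.16 in WT. Of 5 markers of the alpha-receptor-positive myofibroblasts of the growing lung, Hhip, Tgfbi and Wnt5a rose, by 2.705, 1.30 and 1.04. Fgf18 fell by 1.125 and Pdlim3 (-0.045) had no shared call. Pdlim3 was called lower after quantile normalization (-0.45, limma adjusted p = 0.0041), with both group means below the dim level. The WT mean of Hhip lay below the dim level, so the size of its rise is uncertain. That list mean was 7.42 to 7.44 in KrasD12 and 6.59 to 6.72 in WT. Acta2 (-1.67) and Tagln (-1.485), which fell, were counted with the smooth muscle markers and not in this list. Of 4 adventitial markers measured 1, Dpp4, fell (-0.425), with list means of 7.31 to 7.37 and 7.42 to 7.465. Endothelial (6 genes, 5.04 to 5.11 against 4.73 to 4.89) and mesothelial markers (5 genes, 5.61 to 5.67 against 5.49 to 5.51) lacked shared calls. As deposited limma called 3 and 2 of them higher, beside 50.1% of all genes. After quantile normalization it called 1 and 2 of them lower. Epithelial markers (6 genes) had means of 5.51 to 5.6 against 5.08 to 5.14, with Sftpc risen by 0.92 from a WT mean below the dim level. Leukocyte markers (6 genes) had means of 5.21 to 5.31 against 4.85 to 4.90, with Adgre1 and Laptm5 risen, both from WT means below the dim level, and Cd14 fallen. Cdh5, Pecam1, Emcn, Kdr, Epcam, Ptprc and Adgre1 stayed below the dim level in both group means. The part of these other cell types in the PDGF gene values was not tested.

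For the 3 PDGF genes that rose or fell, the closest profiles over the 4 samples were sought among 13192 genes above the dim level, by the Euclidean distance between values from which each gene's mean had been subtracted. The genes closest to Pdgfra were Trim28 and Acads, each at a distance of 0.0087. Those closest to Pdgfrb were the row annotated to Mir99a (0.0166) and Ifi27 (0.02). Those closest to Pdgfd were Dok5 (0.03) and Rexo2 (0.0384). With 4 samples and 1 contrast, such likeness covers little more than the size of the difference, and Acads (0.265) was not called after quantile normalization.

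Next, genes that act on PDGF or below its receptors were counted. The 5 lists held 65 genes, of which 62 were measured and the others were not analysed here. Of these, 19 rose, 16 fell and 27 lacked a shared call, that is 30.6% risen and 25.8% fallen, beside 22.4% and 11.5% of all genes. The median difference was 0.2175 on the deposited values, beside 0.26 for all genes, and 0.00 (0.0025) after quantile normalization, beside 0.00 (-0.0038). The 19 that rose kept a positive sign after median centring, beside 96.1% of all genes that rose, and 6 of the 19 were called higher. All 16 that fell were called lower there. Median centring takes 0.345 off every KrasD12 minus WT difference, so it favours lower calls and opposes higher ones. Without KrasD12 A limma called 10 list genes higher and 8 lower, and without KrasD12 B 11 and 6. Without WT A or WT B it called 0 (22 higher and 10 lower, and 25 higher and 14 lower, at an unadjusted p under 0.05).

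The proteases that release active PDGF went in both directions. Of 12 processing and extracellular binding genes, 3 rose, 3 fell and 6 had no shared call. That is 25% risen and 25% fallen, beside 22.4% and 11.5% of all genes. The median difference of the list was 0.21, or -0.09 after quantile normalization. Pcsk6, a proprotein convertase, showed the largest change. It read 7.11 and 7.08 in KrasD12 A and B and 9.08 and 8.91 in WT A and B. It fell by 1.90 ± 0.08 (limma adjusted p = 0.000269). Furin, the convertase best known for cutting the PDGF-A and PDGF-B precursors, rose by 0.35 ± 0.07 (limma adjusted p = 0.0073), though by 0.28 after quantile normalization and by 0.005 after median centring.

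The activators of the CUB-domain ligands differed as well. Plat encodes tissue plasminogen activator, which cleaves PDGF-C. It read 8.46 and 8.37 in KrasD12 A and B and 9.09 and 9.15 in WT A and B, and it fell by 0.705 ± 0.07 (limma adjusted p = 0.0013). St14 encodes matriptase, which can cleave PDGF-D. It read 6.07 and 6.22 in KrasD12 and 5.0 and 5.29 in WT and rose by 1.00 ± 0.12 (limma adjusted p = 0.0019). After quantile normalization it rose by 0.64. The WT mean of St14 lay just below the dim level, so the size of its rise is uncertain. Plau, the urokinase gene, whose product also cleaves PDGF-D, was called higher on the deposited values only (0.285, and 0.10 after quantile normalization, adjusted p = 0.386). Sparc, a matrix protein that binds PDGF, fell by 0.87 ± 0.07. Lrp1, an endocytic receptor that associates with the beta receptor, rose by 0.375 ± 0.07, though by only 0.03 after median centring. The co-receptor gene Nrp1 (-0.12), Thbs1 (-0.04) and A2m (0.20) were not called on either scaling.

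Of 23 measured signalling genes, 9 rose, 4 fell and 10 had no shared call. That is 39.1% risen and 17.4% fallen, beside 22.4% and 11.5% of all genes. The median difference of the list was 0.285 deposited and 0.20 after quantile normalization. The adaptor gene Shc1 read 10.81 and 10.82 in KrasD12 A and B and 9.90 and 10.04 in WT A and B. It rose by 0.845 ± 0.08 (limma adjusted p = 0.001), and by 0.50 after median centring. The Src-family kinase gene Fyn rose by 0.755 ± 0.07 and Plcg1, phospholipase C gamma, by 0.715 ± 0.07. Sos2, an exchange factor that loads RAS, rose by 0.645, and these 4 were also called higher after median centring. Src (0.495), the adaptor genes Nck2 (0.49) and Crkl (0.475), the phosphatidylinositol 3-kinase subunit gene Pik3r1 (0.47) and Rasa1 (0.425), a RAS GTPase-activating protein that docks on the beta receptor, rose without a call there. The catalytic subunit gene Pik3cb fell by 0.40, Ptpn11, the SHP2 phosphatase that docks on the receptors, by 0.225, Vav2 by 0.21 and Stat5b by 0.20. With a replicate block limma called 1 of these 4 lower, Pik3cb, and with every array row tested 2, Pik3cb and Ptpn11. Grb2 (0.095), Akt1 (0.095) and Stat3 (0.015) had no shared call.

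Of 9 measured genes that dampen the receptors, 4 rose, 0 fell and 5 had no shared call. In limma 0 were also lower at an unadjusted p under 0.05 as deposited. These shares of 44.4% risen and 0% fallen stand beside 22.4% and 11.5% of all genes, and the list is short. Its median difference was 0.32, or 0.22 after quantile normalization. Cbl and Cblb encode ubiquitin ligases that send activated receptors to degradation. Cbl read 8.76 and 8.74 in KrasD12 A and B and 8.32 and 8.15 in WT A and B, and rose by 0.515 ± 0.08 (limma adjusted p = 0.0044). Cblb rose by 0.47 ± 0.07, the low molecular weight phosphatase gene Acp1 by 0.43 and the lipid phosphatase gene Inppl1 by 0.385. After median centring these 4 stayed positive, at 0.17, 0.125, 0.085 and 0.04, and limma called 0 of them (0 at an unadjusted p under 0.05). The phosphatase genes Ptpn1 (-0.045) and Ptprj (-0.15) were called lower after quantile normalization but not as deposited.

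The PDGF receptors belong to the class III receptor tyrosine kinases, with Kit, Csf1r and Flt3. Of 8 genes of this family, its other ligands and Pdgfrl, 1 rose, 5 fell and 2 had no shared call. That is 12.5% risen and 62.5% fallen, beside 22.4% and 11.5% of all genes. The median difference of the list was -0.38 deposited and -0.69 after quantile normalization. Pdgfrl encodes a secreted protein related to the PDGF receptors. It read 7.20 in both KrasD12 samples and 7.70 and 7.73 in WT A and B, and fell by 0.515 ± 0.07 (limma adjusted p = 0.0022). Csf1, a ligand of the Csf1 receptor, read 10.25 and 10.37 in KrasD12 and 11.20 and 11.13 in WT, and fell by 0.855 ± 0.08 (limma adjusted p = 0.001). Kitl, the Kit ligand gene, fell by 0.57, Flt3l by 0.325 and Csf1r by 0.43. The WT mean of Csf1r was close to the dim level and its KrasD12 mean below it. Il34, the other Csf1r ligand gene, read 5.78 and 5.94 in KrasD12 and 5.22 and 5.18 in WT. It rose by 0.66 ± 0.08, or by 0.28 after quantile normalization, from a WT mean close to the dim level. Kit (0.365) and Flt3 (0.305) were called higher on the deposited values only.

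Genes that PDGF or serum induces early in fibroblasts did not share a direction. Of 10 measured, 2 rose, 4 fell and 4 had no shared call, that is 20% risen and 40% fallen. Of all genes, 22.4% rose and 11.5% fell. The median difference of the list was 0.015, or -0.20 after quantile normalization. Ccl2, a monocyte chemokine gene first known as a PDGF-induced transcript of mouse fibroblasts, read 8.22 and 8.35 in KrasD12 A and B and 9.22 and 9.38 in WT A and B, and fell by 1.015 ± 0.09 (limma adjusted p = 0.00098). Cxcl1, another such chemokine gene, fell by 0.705 ± 0.07, and so did Ier3 (-0.355) and the prostaglandin synthase gene Ptgs2 (-0.255). Ier3 and Ptgs2 were not called with a replicate block (adjusted p = 0.0896 and 0.0565 in limma). The AP-1 genes Junb and Fosl1 rose by 0.525 and 0.515, or by 0.27 and 0.23 after quantile normalization. After median centring they stood at 0.18 and 0.17 without a call (limma adjusted p = 0.109 and 0.0996). Fos (-0.035), Egr1 (0.215), Myc (0.065) and the hyaluronan synthase gene Has2 (0.195) had no shared call. Among them Fos was called lower after quantile normalization (-0.34, limma adjusted p = 0.036). The cells were kept in serum and received no treatment, so these values describe steady culture and not a response to added PDGF.

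**Figure D4:**
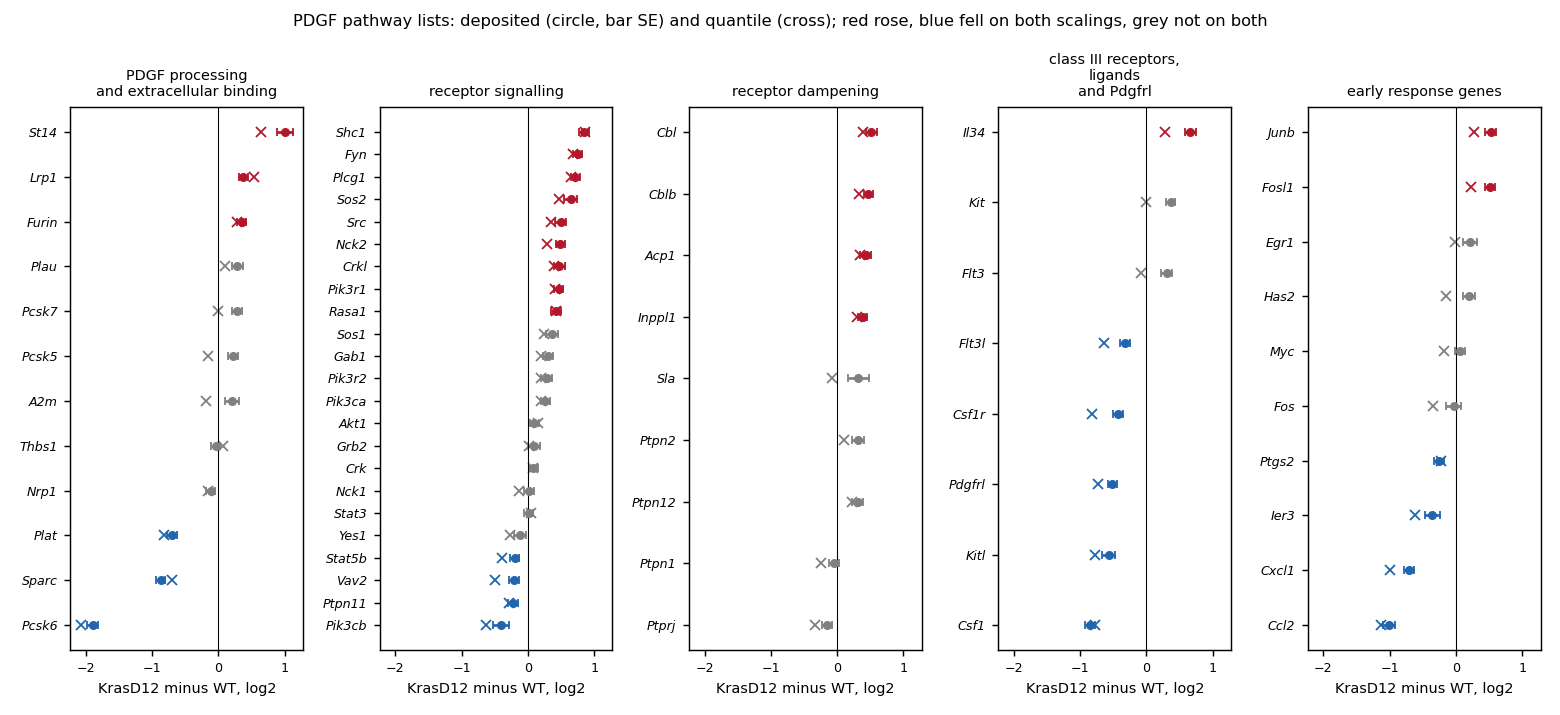
Difference between KrasD12 and WT (log2, horizontal) for each measured gene of the 5 PDGF lists, with circles for deposited values, bars for limma's SE (n = 2 per group) and crosses for quantile-normalized values. Red genes rose and blue genes fell, grey genes had no shared call; Pcsk6 (-1.90) lies farthest to the left.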

How the data were processed

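The deposited table holds log2 values for 28944 array rows and 4 samples, 2 per group. Per the submitters' processing notes the values were made with the Transcriptome Analysis Console, and the sources used here give no version, background correction or scaling. The log2 scale was read from the values, which run from 2.28 to 14.95. The platform annotation gave 21789 rows exactly 1 symbol, and 1621 rows had several symbols. Of the rows with 1 symbol, 21698 matched the GRCm38.p6 gene table, used for names and for the annotated gene starts. The highest-mean row stood for each gene. A linear model with group as its sole term (limma 3.58.1, R 4.3.3, moderated by eBayes, two-sided) was fitted on all 19938 genes, and checked on simulated data. Alternatives were a replicate block, 3 other scalings, a filter on dim genes, trend and robust eBayes, the mean of rows, every row, and each array left out in turn. Promoter windows and plots were handled with Python 3.11.15, pandas 2.3.3 and matplotlib 3.10.9.

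The members and gene lists were chosen with earlier results of these data known. The rule for named genes took the 6 PDGF genes, the list genes called on both scalings with a difference of at least 1 on the log2 scale or else the 2 largest such calls, and the 2 nearest profiles. Other list genes were named after their values were seen. The number of arrays limits the precision, since the 4 samples leave 2 residual degrees of freedom.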

Additional observations from a re-analysis of the deposited data

How the results depend on the processing

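After quantile normalization Pdgfa was called lower (-0.24), the sign of Pdgfc turned (-0.11), the list genes called higher went from 29 to 19, and the receptor pair difference grew to 0.90. After median centring Pdgfa stood at -0.415, Pdgfc at -0.20 and Pdgfra at -0.085, and 6 list genes were called higher and 28 lower, against 29 and 16 on the deposited values. After cyclic loess Pdgfa stood at -0.25, Pdgfb at -0.0065 and Pdgfc at -0.12. All genes called higher and lower numbered 9991 and 2381 as deposited, 4485 and 4861 with quantile normalization, 3574 and 6657 after median centring, and 4533 and 4933 after cyclic loess. Less the median shift of genes of like mean, chosen after seeing the data, the differences were -0.25 for Pdgfa, 0.005 for Pdgfb, -0.10 for Pdgfc, -0.73 for Pdgfd, 0.435 for Pdgfra and -0.39 for Pdgfrb. With each array left out in turn the ranges were -0.67 to -0.52 for Pdgfd, 0.24 to 0.28 for Pdgfra and -0.545 to -0.445 for Pdgfrb, with 0 to 11 list genes called higher and 0 to 8 lower. All genes called higher and lower were 4623 and 1160 without KrasD12 A, 3114 and 773 without KrasD12 B, and 0 without either WT array. These fits hold fewer samples, and the group left with 1 sample is assumed to vary like the other. Nothing says that the replicate letters pair the samples, and the A deviations of the groups hardly correlated across genes (0.01), which cannot settle it. With a replicate block Pdgfd (-0.595), Pdgfra (0.26) and Pdgfrb (-0.495) kept their calls (adjusted p = 0.0235, 0.0416 and 0.0251), and 23 list genes were called higher and 11 lower. The filter on dim genes, trend, robust eBayes and testing every row changed no call of the 6 genes. Nor did the mean of rows, which could not alter their values because each gene had 1 row. The cause of each change was not tested.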
